A study of Mus musculus with 6 samples.

Results

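The 46 genes described here carry out DNA replication or mark S phase, and they were taken by symbol from a list drawn up with earlier results of these arrays known. A gene was included through a transcript cluster, a group of probes over 1 transcribed region, that carries its symbol and no other, and where a gene had several such clusters the brightest was used. All 46 listed genes were measured, of 19937 genes on the arrays in all. The arrays were Affymetrix Mouse Gene 1.0 ST chips, hybridised with RNA of primary neurospheres, which are floating colonies that hippocampal precursor cells form in culture with EGF and bFGF. The cells came from adult male C57BL/6J mice aged 8 to 12 weeks. The N neurospheres (3 arrays) grew with 10 µM norepinephrine, the K neurospheres (3 arrays) with 15 mM potassium chloride, and both were collected on day 14. No untreated neurospheres are among the 6 arrays, so a difference between N and K cannot be assigned to either treatment. The labels call both groups small neurospheres and number the biological replicates, but do not say how many mice stand behind each.

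Replication starts when the origin recognition complex (Orc genes), with Cdc6 and Cdt1, loads the ring-shaped Mcm helicase onto DNA before S phase. Cyclin E and the Dbf4-dependent kinase Cdc7 then fire the origins, and Cdc45 and the Gins proteins join the helicase. Replication factor C (Rfc genes) loads the sliding clamp Pcna, replication protein A (Rpa genes) covers single strands, and DNA polymerases alpha, delta and epsilon copy the template with nucleotides supplied by ribonucleotide reductase and thymidylate synthase. Many of these genes are known targets of E2F transcription factors, which are released when cells commit to S phase. In the adult hippocampus such genes mark dividing precursors, as most other cells there do not replicate their DNA.

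E2F factors recognise short GC-rich words, and the promoters of the list were searched for TTTCGCGC, TTTGGCGC, TTTCCCGC and TTTGCCGC on both strands, in RefSeq windows of the mouse build GRCm38.p6 that run from 250 bases before a gene's start to 50 bases after it. A window was found for 40 of the 46 genes. Of these, 14 (35.0%) held at least 1 word, against 543 of 15613 array genes with a window (3.48%), and counted by window the shares were 29.2% of 48 and 2.26% of 32851. A simpler word, CCAAT, was in the windows of 24 of the 40 genes (60.0%) and of 41.7% of all array genes with a window. A match describes the letters of the window and does not show that a factor binds there. The stretches below lie wholly before the start that defines their window. They are printed 5′ to 3′ on the gene's strand, with the E2F-type words in capitals. For Pola1 and Mcm7 that start lies inside the annotated gene, which reaches to 93632387 and 138172111, so their stretches lie inside it too. They were chosen to show the helicase genes Mcm6 and Mcm5, which were lower with N at an unadjusted P under 0.05, and the polymerase gene Pola1, whose groups did not overlap but which missed that threshold, beside Mcm7, with a log2FC near 0, and Gins3, which had the highest log2FC.
Mcm6 (chr1:128359721-128359839, minus strand): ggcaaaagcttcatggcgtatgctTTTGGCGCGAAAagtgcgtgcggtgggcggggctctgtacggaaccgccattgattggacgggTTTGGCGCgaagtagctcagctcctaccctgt
Mcm5 (chr8:75109332-75109391, plus strand): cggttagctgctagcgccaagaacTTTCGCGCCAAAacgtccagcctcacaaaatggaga
Pola1 (chrX:93632262-93632317, minus strand): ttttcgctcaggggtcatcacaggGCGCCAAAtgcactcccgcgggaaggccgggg
Mcm7 (chr5:138172017-138172072, minus strand): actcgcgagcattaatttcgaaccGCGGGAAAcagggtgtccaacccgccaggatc
Gins3 (chr8:95633494-95633549, plus strand): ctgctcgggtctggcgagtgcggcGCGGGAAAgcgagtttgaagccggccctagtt

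In Mcm6 the 3 words lie between 110 and 40 bases before the start, and in Mcm5 and at the far end of the Mcm6 stretch a pair of words on opposite strands shares 4 bases. The 14 genes with a word had a median log2FC of -0.09 (N minus K) and the 26 without had -0.08 (no test was made). Tyms and Pola2, described next, held none of these words in their windows, and no window was found for Mcm4.

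The K arrays were not alike. Over all genes tested, K replicate 2 correlated more closely with the N arrays (mean Pearson r 0.984) than with the other K arrays (0.976), which no other array did for the opposite group, and results that rest on it are given with and without it. K replicates 1 and 3 had the narrowest spread of values, with 4.89 and 4.85 on the log2 scale between the 10% and 90% percentiles of all clusters against 5.07 to 5.14 on the other 4 arrays.

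Of the 46 genes 0 passed limma's test of N against K at a threshold of 0.05 after Benjamini-Hochberg adjustment over all genes tested, a threshold that 0.155% of all genes passed. The lowest adjusted p was 0.350, for Pola2. At an unadjusted P under 0.05, 5 of the 46 were lower with N (10.9%), where 3.89% of all genes tested were, and 0 of the 46 were higher, where 4.64% of all genes were. These 5 were Tyms, Pola2, Mcm4, Mcm6 and Mcm5. In 8 of the 46 genes (17.4%) the 3 N arrays all lay below the 3 K arrays, as in 7.55% of all genes tested, and in 1 (2.17%) all lay above, as in 5.78% of all genes. The median log2FC of the 46 genes was -0.09, with 29 negative, and that of all genes tested was -0.03, with 57.0% negative. In RNA of whole neurospheres, fewer cells in S phase and less of each transcript per cell cannot be told apart. The smallest two-sided p that exact permutation allows here for any gene is 0.1. Values below are RMA log2 values, with SD over n = 3 arrays for a group and the standard error from limma for a log2FC.

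**Figure D1:**
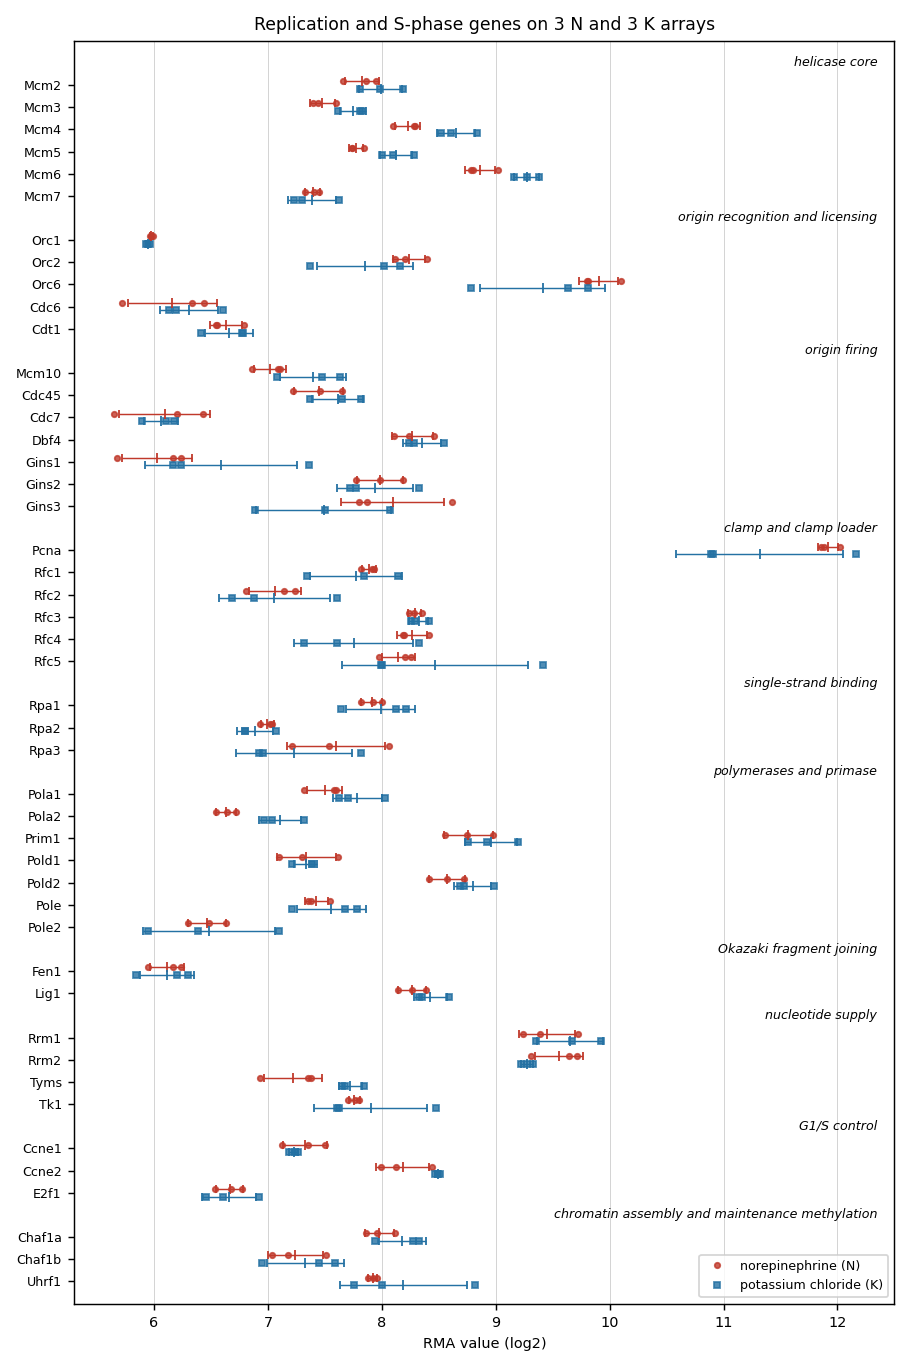
RMA log2 values (horizontal axis) of the 46 genes, ordered by role, with N arrays as red circles and K arrays as blue squares (n = 3 each) and bars for mean ± SD. Red lies wholly left of blue for Mcm3, Mcm4, Mcm5, Mcm6, Pola1, Pola2, Tyms and Ccne2, and the wide blue bars of Pcna, Gins1, Rfc5 and Orc6 come from K arrays that differ from each other.

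The helicase core had the lowest median log2FC of the roles, -0.31, with 5 of its 6 genes negative, where 57.0% of all genes tested were. In 4 of the 6 the N arrays all lay below the K arrays, as in 7.55% of all genes. Mcm4 (chromosome 16 from 15623897 to 15637400 on GRCm38) read 8.10, 8.29 and 8.29 on the N arrays and 8.52, 8.60 and 8.83 on the K arrays. Every N array lay below every K array, and the log2FC was -0.42 (standard error 0.13, adjusted p = 0.396 from limma), a level 1.34 times as high with K. Mcm6 (chromosome 1 from 128331575 to 128359705) read 9.02, 8.78 and 8.80 with N and 9.16, 9.27 and 9.38 with K, again without overlap, and its log2FC was -0.40 (standard error 0.13, adjusted p = 0.398). Mcm5 read 7.74, 7.84 and 7.74 with N and 8.09, 8.00 and 8.28 with K. Its log2FC was -0.35 (standard error 0.12, adjusted p = 0.481).

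Mcm3 read 7.39, 7.60 and 7.44 with N and 7.81, 7.82 and 7.62 with K, which leaves a gap of hardly any size between N replicate 2 and K replicate 3. Its log2FC of -0.27 (standard error 0.12) missed the unadjusted threshold, which it passed after quantile (-0.30) and cyclic loess (-0.28) normalization of the table. It also passed with K replicate 3 left out (-0.34) and in the fit without moderation. Mcm2, with a log2FC of -0.17, had groups that overlapped, since K replicate 3 (7.80) lay below N replicates 1 (7.86) and 3 (7.95). Mcm7, of the same hexameric ring, had means of 7.39 ± 0.06 for N and 7.39 ± 0.21 for K and a log2FC of 0.005. Averaged over the 6 genes, the N arrays read 7.92 to 7.94 and the K arrays 8.13 to 8.25.

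Among the polymerase genes, 6 of 7 had a negative log2FC, where 57.0% of all genes tested did, and the median was -0.20. Pola2 (chromosome 19 from 5940543 to 5964238), the accessory subunit of DNA polymerase alpha, read 6.54, 6.64 and 6.72 with N and 6.96, 7.31 and 7.03 with K. Its groups did not overlap and its log2FC was -0.47 (standard error 0.13), a level 1.38 times as high with K. Pola1, the catalytic subunit of the same enzyme, read 7.58, 7.32 and 7.60 with N and 8.03, 7.62 and 7.70 with K. The groups were apart by little, and the log2FC was -0.29 (standard error 0.15, adjusted p = 0.665 from limma). Prim1, the primase subunit that works with them, had -0.20 and overlapped. The delta subunits Pold1 and Pold2 had 0.01 and -0.23, and the epsilon subunits Pole and Pole2 had -0.13 and -0.01, all with overlap between the groups. Without K replicate 2, Pola1, Pola2 and Prim1 had -0.37, -0.36 and -0.08. Pold1, Pold2, Pole and Pole2 then had -0.05, -0.28, -0.02 and 0.30.

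In nucleotide supply, Tyms (chromosome 5 from 30038546 to 30073645), which makes thymidylate, read 7.35, 7.38 and 6.93 with N and 7.65, 7.84 and 7.68 with K. All N arrays lay below all K arrays, N replicate 3 furthest, and the log2FC was -0.50 (standard error 0.15, adjusted p = 0.384 from limma), a level 1.42 times as high with K. The ribonucleotide reductase subunits pointed different ways. Rrm1, the large subunit, had a log2FC of -0.20 (standard error 0.18). Rrm2, the small subunit that S phase cells make anew, read 9.64, 9.31 and 9.71 with N and 9.22, 9.27 and 9.33 with K, with N replicate 2 just below K replicate 3. Its log2FC of 0.28 (standard error 0.14) did not pass. Tk1, thymidine kinase, had -0.14, and its K replicate 3 at 8.48 stood above the other 5 arrays, which lay between 7.61 and 7.80.

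Of the genes that switch cells into S phase, Ccne2 (cyclin E2) read 8.12, 7.99 and 8.44 with N and 8.46, 8.51 and 8.49 with K. The K arrays were close together and N replicate 3 reached almost to them, so the groups did not overlap but the log2FC of -0.31 (standard error 0.14) missed the unadjusted threshold. After quantile and cyclic loess normalization it was -0.36 and -0.34 and passed, as it did with N replicate 3 left out (-0.44). Ccne1 (cyclin E1) had 0.10 and the transcription factor gene E2f1 had 0.003. The chromatin genes, which rebuild nucleosomes and DNA methylation behind the fork, all had negative values without passing, -0.20 for Chaf1a, -0.09 for Chaf1b and -0.27 for Uhrf1. Uhrf1 read 7.88 to 7.96 with N but 8.00, 8.82 and 7.75 with K, with K replicate 2 above all other arrays. Without K replicate 2 the log2FC was 0.04 for Uhrf1, 0.04 for Chaf1b and -0.15 for Chaf1a, so the shared sign rests on that array.

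The licensing and firing genes spread to both sides. Orc6 read 10.10, 9.81 and 9.80 with N and 9.64, 9.81 and 8.79 with K, and Orc2 read 8.12, 8.39 and 8.20 with N and 8.02, 8.16 and 7.37 with K. In both, K replicate 3 was far below all other arrays, and the log2FC were 0.49 (standard error 0.25) and 0.39 (standard error 0.21). Orc1 was the gene whose N arrays all lay above the K arrays, by a log2FC of 0.03 with a whole range of 5.93 to 5.99, at a level below the median of all clusters (6.34). Cdc6 and Cdt1, which help load the helicase, had -0.15 and -0.03. Among the firing genes, Mcm10, which helps activate the helicase, had -0.38 (standard error 0.17), with K replicate 2 (7.08) inside the N range of 6.86 to 7.11, and lay just outside the unadjusted threshold. Cdc45, Cdc7 and Dbf4 had -0.17, 0.03 and -0.09.

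The Gins genes, whose products form 1 complex, had log2FC of both signs. Gins3 (chromosome 8 from 95633559 to 95645059) read 7.80, 7.87 and 8.62 with N and 7.50, 8.07 and 6.89 with K, and had the highest log2FC of the list, 0.61 (standard error 0.31, adjusted p = 0.659 from limma). Gins1 read 6.24, 6.17 and 5.68 with N and 6.24, 6.17 and 7.36 with K, and had the lowest, -0.56 (standard error 0.31). Its mean level of 6.31 was just below the median of all clusters (6.34), and without K replicate 3 its log2FC was -0.17. Replicates 1 and 2 of both groups read alike in Gins1, and the replicates numbered 3 lay on opposite sides of them. Gins2 had 0.04.

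The clamp and its loader had a median log2FC of 0.06, with 4 of 6 genes positive, where 57.0% of all genes tested were negative. Pcna read 12.02, 11.85 and 11.88 with N and 10.89, 12.16 and 10.90 with K, a log2FC of 0.60 (standard error 0.31, adjusted p = 0.658 from limma). K replicate 2 was the brightest of all 6 arrays and K replicates 1 and 3 the dimmest. The clusters next to this one in the array's numbering belong to chromosome 19 in 9 of 10 cases, while Pcna lies on chromosome 2, so where this cluster lies is not settled here. The second Pcna cluster, with 10 of 10 neighbours on chromosome 2, read 11.67, 11.71 and 11.62 with N and 11.53, 11.73 and 11.29 with K, a log2FC of 0.15. The same holds for Rpa3 and Tk1, whose brightest clusters have 0 of 10 neighbours on the gene's own chromosome. The other Rpa3 cluster read 7.94, 8.46 and 7.77 with N and 5.73, 7.92 and 6.44 with K, again with K replicate 2 the highest K array. Its log2FC was 1.36 (standard error 0.47), against 0.37 (standard error 0.28) for the cluster used. The other Tk1 cluster read 7.32 to 7.44 with N and 7.38 to 7.83 with K.

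Rfc4 read 8.41, 8.18 and 8.19 with N and 7.32, 8.33 and 7.61 with K (log2FC 0.51, standard error 0.24), again with K replicate 2 the highest K array. Rfc5 had -0.32, which rests on K replicate 1 at 9.41, since the other 5 arrays lay between 7.98 and 8.25. Rfc1, Rfc2 and Rfc3 had 0.11, 0.01 and -0.03. Without K replicate 2, these 3 had 0.29, 0.28 and 0.01, and Rfc5 had -0.56. The single-strand binding genes Rpa1 and Rpa2 had -0.08 and 0.11. Fen1, which trims Okazaki fragments, and Lig1, which joins them, had -0.001 and -0.16, with overlap between the groups in both.

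**Figure D2:**
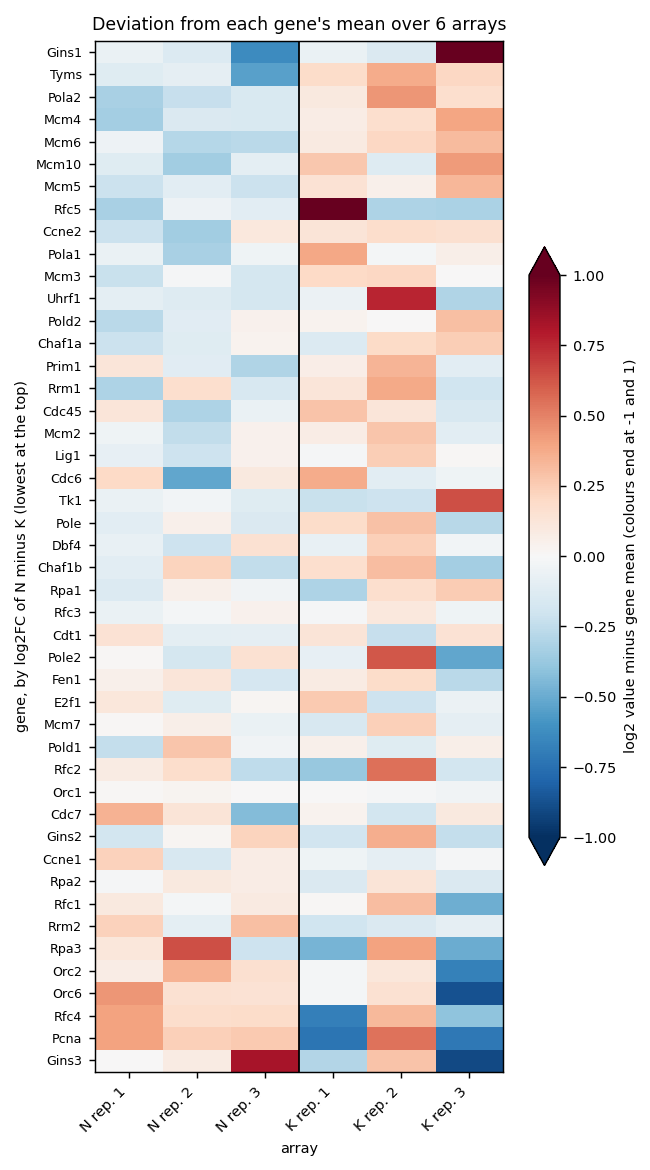
Each cell shows the log2 value of a gene (rows, sorted by log2FC of N minus K) on an array (columns) minus that gene's mean over the 6 arrays. K replicate 2 is the highest array for 21 of the 46 genes, and in the bottom rows, Rpa3 to Gins3, it differs from K replicates 1 and 3.

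In 37 of the 46 genes (80.4%) the SD was larger among K arrays, against 63.3% of all genes tested, and the median SD was 0.22 for K and 0.15 for N. K replicate 2 was the highest of the 6 arrays for 21 genes (45.7%), while it was highest for 11.9% of all genes tested and for 16.9% of those brighter than the median cluster, the class that 41 of the 46 belong to. Averaged over the list, K replicates 1, 2 and 3 read 7.77, 7.93 and 7.70 and the N arrays 7.73 to 7.75. Quantile and cyclic loess normalization, which bring the spread of the arrays together, gave 7 genes lower with N in place of 5, adding Mcm3 and Ccne2. Of all genes tested, 3.98% and 3.7% were then lower at an unadjusted P under 0.05, against 3.89% before. The median log2FC of the list minus that of all genes was -0.11 and -0.10 in place of -0.06.

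Of the 7 genes with the highest log2FC (Gins3, Pcna, Rfc4, Orc6, Orc2, Rpa3 and Rrm2), all but Rrm2 had K replicate 2 above both other K arrays. With K replicate 2 left out, those 6 genes reached an unadjusted P under 0.05, where 7.39% of all genes then were higher at that threshold, and the log2FC of Gins3 was 0.90, of Rfc4 0.80 and of Orc6 0.69. Pcna had 1.02 from the cluster whose place is not settled, and 0.26 (standard error 0.13), which missed the threshold, from the cluster with its neighbours on chromosome 2. Rpa3 had 0.66 (standard error 0.24) from a cluster whose place is not settled either, and its other cluster also passed the threshold. Mcm10 then passed too, at -0.54 (standard error 0.14), lower with N. The lowest adjusted p in the list without K replicate 2 was 0.0539 from limma, so none passed. With K replicates 1 and 3 both left out instead, a fit that takes the lone K array to vary like the N arrays, Pcna had -0.25, Rfc4 -0.07, Gins3 0.02 and Orc6 0.10. Tyms, Pola2, Mcm4 and Mcm6 were lower with N under the unadjusted threshold with any 1 array left out. Mcm5 missed it when N replicate 1 was left out, and likewise for N replicate 3 and for K replicate 3. With K replicates 1 and 3 both left out, Tyms and Pola2 had -0.62 and -0.68. Mcm4 and Mcm6 had -0.38 (standard error 0.16) and -0.41 (standard error 0.17), close to their values on all arrays, and Mcm5 had -0.23 (standard error 0.15). Low values in that fit were not confined to these genes, since Rfc2, at 0.01 on all arrays, had -0.55.

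**Figure D3:**
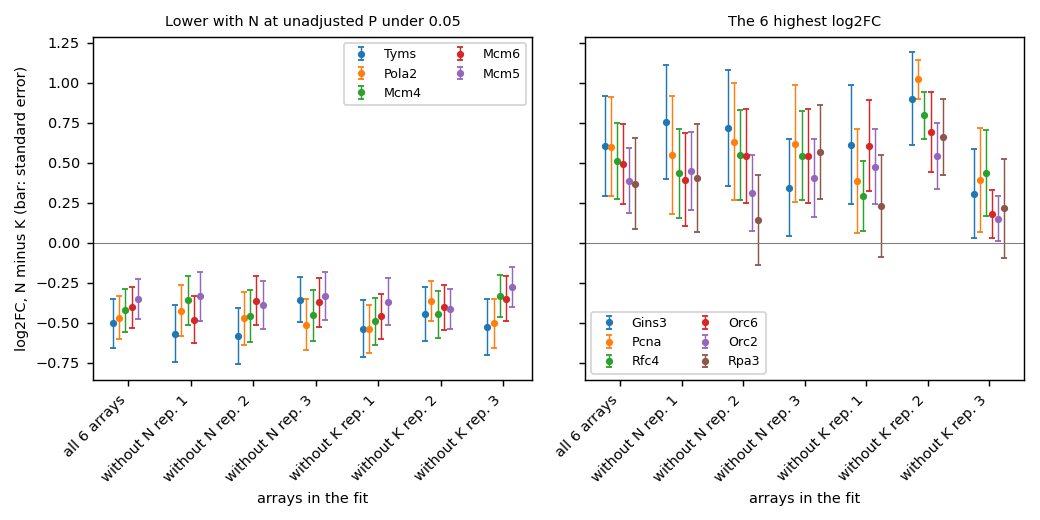
log2FC of N minus K (vertical axis, bars for the standard error from limma) with all 6 arrays and with each array left out, for the 5 genes lower with N at an unadjusted P under 0.05 (left) and the 6 genes with the highest log2FC (right). The left-hand values stay between -0.58 and -0.28, while Pcna on the right runs from 0.38 to 1.02. Pcna and Rpa3 are drawn from clusters whose place is not settled.

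Other replication genes, a list of 38 that includes the remaining Orc subunits, fork protection and histone chaperone genes, had 37 measured. Their median log2FC was -0.03, 19 were negative and 18 positive, none passed at an adjusted p, and 2 were lower (5.41%) and 1 higher (2.70%) at an unadjusted P under 0.05, near the 3.89% and 4.64% of all genes tested. The lower ones were Rnaseh2a, which removes RNA primers, with -0.36 (standard error 0.11), and Wdhd1, which ties polymerase alpha to the helicase, with -0.39 (standard error 0.13). The higher one was Gins4, the partner of Gins3, with 0.77 (standard error 0.30). It read 9.97, 9.79 and 9.68 with N and 8.92, 9.79 and 8.40 with K, so K replicate 2 lay inside the N range. Gmnn, the inhibitor of Cdt1, had 0.45 (standard error 0.22) and did not pass.

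Replication-dependent histone genes, a list taken by symbol, had 20 of 26 negative values and a median of -0.20. S phase cells transcribe most such genes to package new DNA, but this was not checked for each gene of the list. Of all genes tested 57.0% were negative. At an unadjusted P under 0.05, 4 histone genes (15.4%) were lower with N and 0 higher, where 3.89% and 4.64% of all genes tested were. The lower ones were H4c9, H1f1, H2ac4 and H2ac1, with -0.40, -0.41, -0.31 and -0.33, and none passed at an adjusted p from limma. H2ac4 was dim, with a mean level of 3.56 against a median of all clusters of 6.34. The histone genes have near-identical copies, so probes may read several of them and single values are uncertain. Averaged over the list, K replicate 2 (6.70) lay inside the N range of 6.61 to 6.75, with K replicates 1 and 3 at 6.95 and 6.90.

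Mitosis genes, which act after S phase, showed little difference: of 19 measured, 10 were negative, the median was -0.03, and 0 were under an unadjusted P of 0.05 or an adjusted p of 0.05 from limma in either direction. Foxm1, a transcription factor of late cell cycle genes, had -0.26 (standard error 0.13), the motor gene Kif11 -0.22, Birc5 0.29 and Cenpe 0.18. Averaged over this list too K replicate 2 was the highest array, at 8.84 against 8.43 to 8.74 on the other 5.

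**Figure D4:**
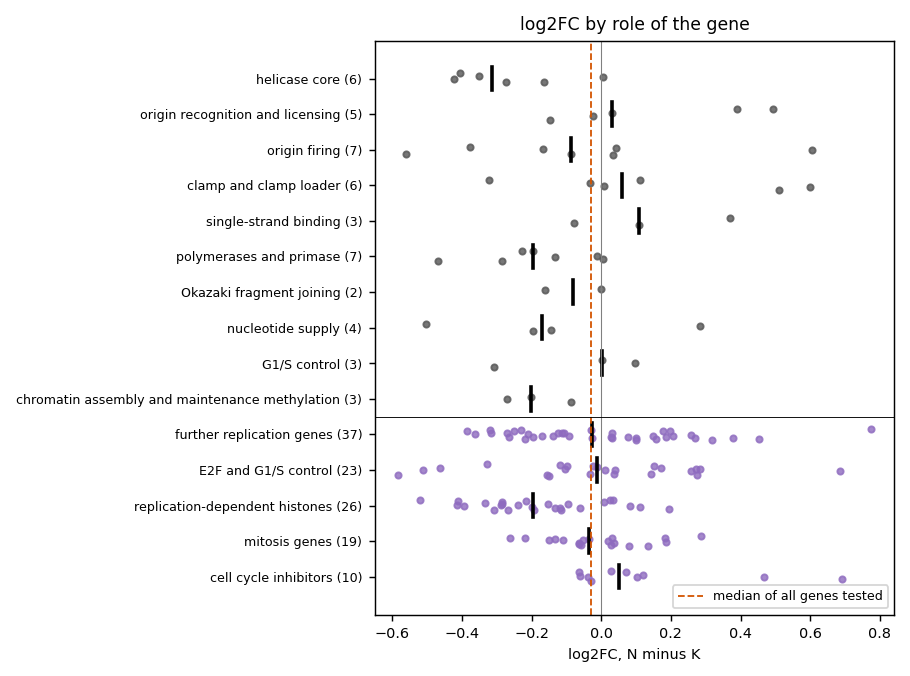
Difference N minus K on the log2 scale (horizontal axis) for genes by role (grey points, number of genes in brackets) and for 5 further lists (purple points), with black bars at medians and a dashed line at the median of all genes tested, -0.03. The helicase core has the lowest median, -0.31, and single-strand binding the highest among the roles, 0.11.

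Cell type markers were read beside these genes. The precursor markers Sox2, at 10.15 ± 0.26 with N and 9.90 ± 0.27 with K, and Vim, at 11.75 ± 0.01 and 11.31 ± 0.05, were bright, as was Fabp7 at 12.81 ± 0.09 and 12.82 ± 0.13. Of the 6 precursor markers 3 had a positive and 3 a negative log2FC. At an unadjusted P under 0.05 Vim (0.44) and Prom1 (0.40) were higher with N and Nes (-0.53) was lower. None passed at an adjusted p from limma, and Prom1 had a mean level of 5.96, below the median of all clusters (6.34). The mean of the 6 markers ran from 9.42 to 9.53 with N and from 9.36 to 9.48 with K. All 6 astrocyte markers had a positive log2FC, and their mean ran from 9.67 to 10.05 with N and from 8.87 to 9.0025 with K. At an unadjusted P under 0.05, 5 of the 6 (83.3%) were higher with N, where 4.64% of all genes tested were. After adjustment Gfap passed (log2FC 1.66, adjusted p = 0.0358 from limma). The part of astrocyte or neuron content in the values of the replication genes was not tested. Of 6 neuron and neuroblast markers, 3 had a positive and 3 a negative log2FC. Snap25 (0.81, standard error 0.21) and Tubb3 (0.47, standard error 0.16) were higher with N at an unadjusted P under 0.05. No marker of this list was lower at that threshold, and 4.64% of all genes tested were higher. The list mean ran from 5.93 to 6.01 with N and from 5.58 to 5.97 with K, below the median of all clusters (6.34). Of 5 measured oligodendrocyte lineage markers, 0 were under that threshold, and their mean ran from 7.42 to 7.47 with N and from 7.37 to 7.57 with K. Markers of microglia, endothelium and pericytes with fibroblasts were dim like the neuron and neuroblast list, with list means between 5.71 and 6.17 on every array. Of these, 0 of 18 were under an unadjusted P of 0.05.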

How the data were processed

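RNA from 3 N and 3 K neurosphere samples was hybridised to 1 array each. Per the labels and the study's methods, the authors used RMA in Partek software, a background correction and between-array normalization that yields log2 values for each transcript cluster; versions and settings are not given in the sources used here. The deposited log2 values, from 1.57 to 14.1, were used as they stand. Of 34760 clusters, 21640 carried exactly 1 symbol and gave 19937 genes. The difference N minus K was fitted by lmFit and eBayes of limma 3.58.1 (R 4.3.3), with Benjamini-Hochberg adjustment over all genes tested. The fit was tested on simulated data. Precision is limited by 3 arrays per group, and p-values measure the spread between these arrays, labelled biological replicates.

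The genes and lists were chosen with earlier results of these data known, so lists are described by counts and medians with no test. All 46 genes may be named, and up to 4 genes of each further list, those with the smallest P. Alternatives were the replicate number in the model, no moderation, trend and robust eBayes, a filter on dim clusters, quantile and cyclic loess normalization, median centring, the mean of all clusters, all clusters tested, and each array left out. Leaving out K replicates 1 and 3 together, and the other clusters of Pcna, Rpa3 and Tk1, with all arrays and without K replicate 2, were chosen after seeing the data. Promoter windows and positions come from RefSeq on GRCm38.p6. Figures were drawn with matplotlib 3.10.9.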

Additional observations from a re-analysis of the deposited data

How the results depend on the processing

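No gene of the list passed at an adjusted p under 0.05 in any alternative run. The count lower with N at an unadjusted P under 0.05 was 5, where 3.89% of all genes tested were lower. It ran from 4 to 6 with each array left out, where 2.76% to 7.21% of all genes were. The 6 and the 7.21% both came without K replicate 2. The count was also 6 with the replicate number as a block, where 3.79% of all genes were lower. Without moderation and with a gene's clusters averaged it was 6 too, where 4.01% and 3.94% of all genes were. After quantile and after cyclic loess normalization it was 7, where 3.98% and 3.7% of all genes were, and Mcm3 and Ccne2 also passed. The count higher with N was 0, where 4.64% of all genes were higher. It ran from 0 to 6 with each array left out, with the 6 coming without K replicate 2, where 7.39% of all genes were. It was 1 with a gene's clusters averaged and 1 with the other clusters of Pcna, Rpa3 and Tk1, in both cases Rpa3, and 5 when K replicate 2 was left out with those other clusters, Pcna being the one lost. With the replicate number as a block it was 2, Orc6 and Rpa3, but same-numbered arrays deviated together by correlations of 0.04, 0.04 and 0.12 only, so the numbers are not known to pair the arrays. The median log2FC of the list minus that of all genes was -0.06. It was -0.11 with quantile and -0.10 with cyclic loess normalization, and -0.10 with clusters above the median alone. It ran from -0.12 to 0.01 with each array left out, 0.01 being the value without K replicate 2, and was -0.23 with K replicates 1 and 3 both left out. In that last fit, with 1 K array, Rfc2 turned from 0.01 to -0.55. The cause of these changes was not tested. With the filter on dim clusters 41 of the 46 genes remained in the fit. Over all genes tested, the adjusted count of 31 ran from 0 to 21 with each array left out.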

Other observations

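Regulators of the step into S phase were read as a separate list of 23 cyclin, kinase, E2F and Rb family genes. Their median log2FC was -0.01 and none passed at an adjusted p from limma, while 2 (8.70%) were lower and 1 (4.35%) higher with N at an unadjusted P under 0.05, where 3.89% and 4.64% of all genes tested were. The lower ones were Cdk2, the kinase partner of cyclin E, at 6.97 ± 0.11 with N and 7.48 ± 0.17 with K (SD, n = 3 arrays each; log2FC -0.51, standard error 0.13), and E2f8, a repressor among the E2F factors, at 7.72 ± 0.14 and 8.30 ± 0.34 (log2FC -0.58, standard error 0.18). The higher one was Ccnd2, cyclin D2, at 11.22 ± 0.11 and 10.53 ± 0.07 (log2FC 0.69, adjusted p = 0.103 from limma). Lin54, of the DREAM complex, had -0.46 (standard error 0.21) and did not pass.

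A list of cell cycle inhibitors, growth arrest genes and p53 pathway genes had 10 measured. At an unadjusted P under 0.05, 2 of the 10 (20%) were higher with N, where 4.64% of all genes tested were, and 0 lower. None passed at an adjusted p from limma. Cdkn2b, an inhibitor of the cyclin D kinases, read 8.33 ± 0.06 with N and 7.64 ± 0.36 with K (log2FC 0.69, standard error 0.18, adjusted p = 0.290 from limma). Ccng1, a target of p53, read 11.38 ± 0.11 and 10.91 ± 0.23 (log2FC 0.47, standard error 0.15). Mdm2 and Cdkn2d had 0.12 and 0.10. Cdkn1a and Trp53 had no cluster of their own among the clusters used.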
